A study of Homo sapiens with 2 samples.

Results

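The terminal band of the long arm of chromosome 17, 17q25.3, was described through every summit that ChIP-seq with an antibody against ZMYND8 placed in it. The band was chosen for the number of summits it holds in these lists, so its members were selected on summit counts. Members were all summits of both deposited lists between positions 75300001 and 81195210 of chromosome 17 in hg19, which are the band's edges in the cytogenetic map. The band held 699 of 46309 summits in all, 6 of 385 in the ZMYND8 knockout list and 693 of 45924 in the parental list. Both lists came from mammospheres, suspension cultures in which cells with stem-like growth are favoured, of MDA-MB-231, an established line from a triple-negative breast cancer. 1 library was from spheres of genotype ZMYND8 knockout and 1 from spheres of genotype wildtype (parental). Both were grown in MammoCult medium and precipitated with the same antibody. Whether the knockout line was a single clone was not stated, nor were read depth, the control library and the calling threshold. Each genotype had 1 library in the files used here, and further replicates, if there were any, were not analysed here. There was thus no replicate error and no test between genotypes, and the 95% intervals below cover counting error only. The targeted gene could not be checked, since summit lists carry no transcript levels.

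ZMYND8 is a chromatin reader whose bromodomain, PHD finger and PWWP domain bind modified histone tails and whose MYND domain recruits partner proteins. It is found at promoters and enhancers and works with corepressor complexes such as NuRD. 17q25.3 is a gene-rich, Giemsa-negative band that runs to the end of the long arm. In the RefSeq order of chromosome 17 (assembly GRCh38.p14, used for names and neighbours only), 106 protein-coding genes stand from SEPTIN9, a cytoskeletal septin, to METRNL, a secreted hormone-like protein. They include SOCS3, an inhibitor of cytokine signalling, and BIRC5, the mitotic survival protein survivin. RPTOR, the defining subunit of mTOR complex 1, ACTG1, which encodes cytoplasmic gamma actin, and FASN, the fatty acid synthase, also stand in this order. Summits are given by position, because hg19 positions of these genes were not used here. None of 678 hg19 transcript models shipped with installed software overlapped the band.

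Summits of the parental list were packed into 17q25.3 and, inside it, into its distal part. The band held 117.6 parental summits per Mb (exact Poisson interval 109.0 to 126.6), against 29.0 (27.8 to 30.2) in the rest of chromosome 17 and 15.27 (15.1 to 15.4) on the other autosomes. The rate was 115.2 per Mb (102.3 to 129.3) in 11q13.1 and 85.0 (78.3 to 92.1) in 19p13.2, a pair of other gene-rich bands. Of the 822 bands of at least 1 Mb, 17q25.3 had the third highest density, after 8q24.3 and 19p13.11. The band was picked for this density, so these values are a description. Band lengths include unsequenced bases. At the proximal edge, the outermost member lay 278 bp inside, with a score of 5.76. The nearest parental summit outside lay 11351 bp away with a score of 7.27.

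Counted in 100 kb windows from the proximal edge, the 59 windows of the band held between 0 and 40 parental summits, with a median of 9 and quartiles of 2 and 19. The last window was 95.2 kb long. The median was 1 over the 753 windows in the rest of chromosome 17 and 0 over the 28011 windows of the other autosomes. At least 20 summits were found in 14 of the 59 windows (23.7%), against 0.930% of windows in the rest of chromosome 17 and 0.807% on the other autosomes. No more than 2 summits were found in 17 of the 59 windows (28.8%), against 65.6% in the rest of chromosome 17 and 82.7% on the other autosomes. The 10 fullest windows held 298 of the 693 summits, 43.0%.

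The fullest window, from 79800001 to 79900000, held 40 parental summits. Only 23 of 28823 autosomal windows held 40 or more. Next came the windows starting at 80000001 and 80100001 with 31 each, at 81000001 with 30 and at 79300001 with 29. The 5 consecutive windows from 79800001 to 80300000 each held at least 27 and together held 156 summits, 22.5% of the band's total. At the other extreme, 7 windows were empty, those starting at 75500001, 75800001, 76600001, 77200001, 77300001, 77500001 and 77600001. All of them lay in the first 2.95 Mb of the band. Empty windows were rarer here (11.9%) than in the rest of chromosome 17 (41.0%) and on the other autosomes (60.3%).

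By 1 Mb steps from the proximal edge, the parental list held 72, 73, 69, 123 and 259 summits, and 97 in the last 0.895 Mb. The fifth step, from 79300001 to 80300000, thus had 259 per Mb (228.4 to 292.5), and the last one had 108.4 per Mb (87.9 to 132.2). Density did not climb evenly to the chromosome end. It dropped to between 5 and 14 summits per window from 80300001 to 81000000 before the window of 30. Split at the midpoint, the distal 2.95 Mb held 479 summits (69.1%) and the proximal 2.95 Mb held 214 (30.9%).

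**Figure D1:**
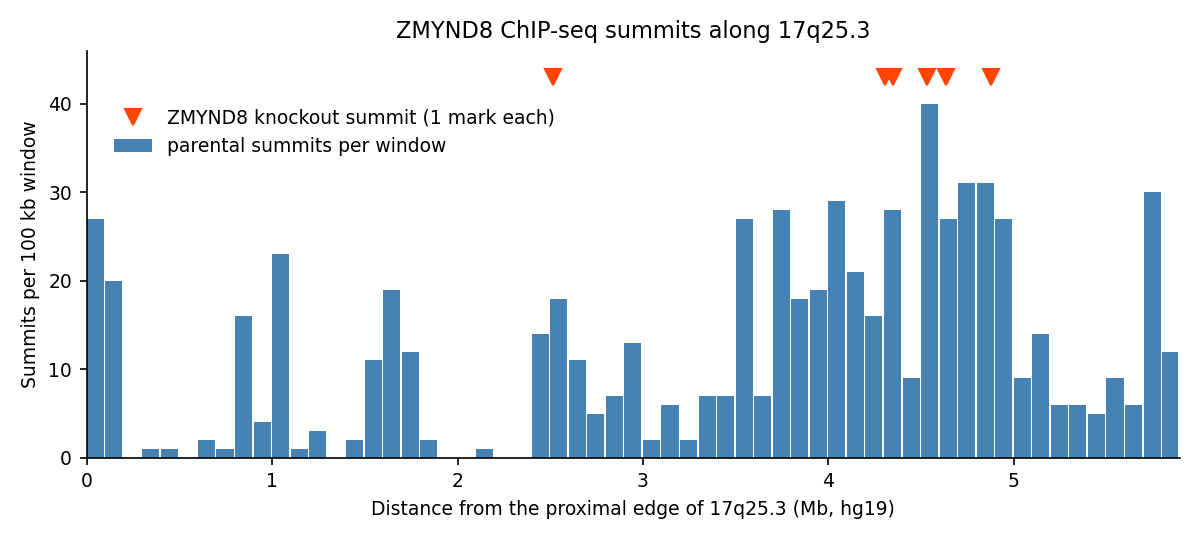
Bars give parental summits in 59 windows of 100 kb along 17q25.3, by distance from the proximal edge in Mb, and triangles mark the 6 ZMYND8 knockout summits (their height has no meaning). The fullest window holds 40 parental summits, 7 windows hold none, and 5 of the 6 knockout summits lie among the full windows of the distal part.

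Many of the band's parental summits lay in short runs. A run was taken as 5 or more parental summits with steps of at most 5000 bp. The band held 42 of the 1527 runs in the list, 7.12 per Mb, against 1.18 per Mb in the rest of chromosome 17. Of its 693 summits, 407 lay in a run (58.7%, exact binomial interval 55.0 to 62.4), where the share over the whole parental list was 27.2%. The share was 51.9% (47.8 to 56.0) in 19p13.2, and in 11q13.1 it was 144 of 288 summits (44.1 to 55.9%). A denser list gives more runs by this rule, so the excess restates the density in part. All 42 runs together spanned 512.4 kb, 8.69% of the band.

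Inside the runs, spacing was that of runs elsewhere. The median step between neighbours in a run was 973 bp in the band (quartiles 584 and 1935 bp) and 976 bp over the whole list (585 and 1816 bp). Over all neighbours, in or out of runs, the median step was 1887 bp in the band, 4424 bp in the rest of chromosome 17 and 5941 bp on the other autosomes. Steps of at most 5 kb made up 70.7% in the band, 51.9% in the rest of chromosome 17 and 48.0% on the other autosomes. Since the step limit of the rule bounds the steps inside runs, their medians can differ little.

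**Figure D2:**
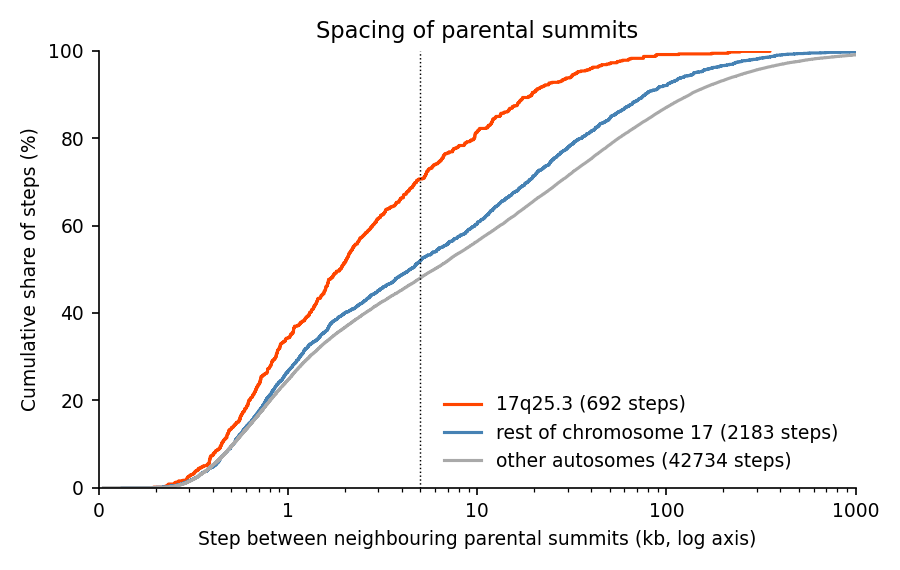
Cumulative share of steps between neighbouring parental summits, by step in kb on a log axis, for 17q25.3, the rest of chromosome 17 and the other autosomes. The dotted line marks the 5 kb limit used for runs. The curve of 17q25.3 reaches 70.7% there, above 51.9% and 48.0% for the other sets.

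The run with most summits went from 79846170 to 79886787, in the fullest window. It held 29 parental summits over 40.6 kb with a median score of 4.71 and a highest of 20.3. Only 19 runs in the whole list held 29 or more. The next ones held 27 summits over 22.9 kb (80184366 to 80207292), 23 over 25.6 kb (80040172 to 80065773), 16 over 27.2 kb (81005977 to 81033156) and 15 over 16.5 kb (79008577 to 79025033). The median run of the band held 8 summits over 10.1 kb.

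Runs with most summits were not the ones with the highest scores. The score is the authors' −log10 p or q value of a summit, which of the 2 was not stated. The highest median, 8.90, belonged to a run of 8 summits from 79477948 to 79486231, 4 of which reached a score of 10, as 6.27% of the whole list did. A run of 9 summits from 79816505 to 79829497 followed with 8.34, and a run of 7 from 79315081 to 79319771 with 6.46. In 37 of the 42 runs the median was below 5. The highest summit of a run was its first or last in 9 of the 42 runs (21.4%), against 387 of the 1527 runs of the whole list.

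Between the runs lay long stretches with no parental summit, though long steps were rarer here than elsewhere. The 95th percentile step was 33600 bp in the band, 142302 bp in the rest of chromosome 17 and 266395 bp on the other autosomes. In the band, steps of over 50 kb numbered 21 and together covered 2.32 Mb, 39.4% of its length. The longest went from 77139754 to 77491927, a step of 352.2 kb, and a single summit separated it from one of 215.3 kb that ended at 77707208. Others of over 100 kb ended at 76777833 (244.4 kb), 75694180 (210.9 kb), 75954862 (173.5 kb) and 76497259 (115.9 kb). No knockout summit fell into any of these 6 stretches. All 6 knockout summits of the band lay within 1000 bp of a parental summit, which leaves little room for one inside such a stretch. The share of the whole knockout list within that distance is not given here. From the last parental summit, at 81153106, to the end of the chromosome there were 42.1 kb.

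Scores in the band were close to those of the whole list, in contrast to its density. Parental summits in 17q25.3 had a median score of 4.10 (quartiles 2.93 and 5.68), against 3.79 (2.93 and 5.68) over the whole list. A score of at least 10 was reached by 46 of 693 (6.64%, 4.90 to 8.75), where the share over the whole list was 6.27%. It was 9.72% (6.56 to 13.7) in 11q13.1 and 5.55% (3.85 to 7.70) in 19p13.2. On either side of the band's midpoint the share was 6.68% (4.61 to 9.30) in the distal part and 6.54% (3.62 to 10.7) in the proximal part. By 1 Mb steps from the proximal edge it was 4.17%, 6.85%, 8.70%, 5.69% and 8.88% (5.71 to 13.03), and 2.06% (0.251 to 7.25) in the last 0.895 Mb. Across the 52 windows with a summit, count and median score had a Spearman rho of 0.020, a description over windows of 1 library.

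High scores fell mostly into runs. Of the 46 summits that reached 10, 33 (71.7%) lay in a run, in 17 different runs. Among the parental summits of the band, 8.11% of those in runs and 4.55% of those outside runs reached 10. The same shares over the whole list were 8.58% and 5.41%.

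The highest summit of the band lay at 80175969 with a score of 51.8, rank 24 in the parental list. It stood in a run of 9 from 80170858 to 80178854, and the summits before it in that run had scores of 9.12, 3.79, 3.79, 4.71 and 10.02. Those after it had scores of 3.79, 3.27 and 3.79. The next highest lay at 78831139 with a score of 33.6, rank 62. Its 7 neighbours within 10 kb reached at most 5.62. A single summit thus stood far above its neighbours at both sites.

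The third and the sixth highest lay in the same run, at 79829497 (22.1) and 79828552 (17.8). The fourth, at 79856966 (20.3), belonged to the run of 29, and the fifth, at 78228364 (18.1), to a run of 12. Below these came 79791556 (17.5) and 79315081 (17.5), and a score of 16.2 was shared by 79651271, 80188262 and 81151411. The last of the 15 highest were 80189072 (14.9), 77033606 (14.7), 79477948 (14.1) and 79532504 (14.0). Of these 15, 12 lay in runs and 13 in the distal 2.95 Mb, and each had between 3 and 16 parental neighbours within 10 kb. Of all parental summits of the band, 58.7% lay in runs and 69.1% in the distal 2.95 Mb.

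**Figure D3:**
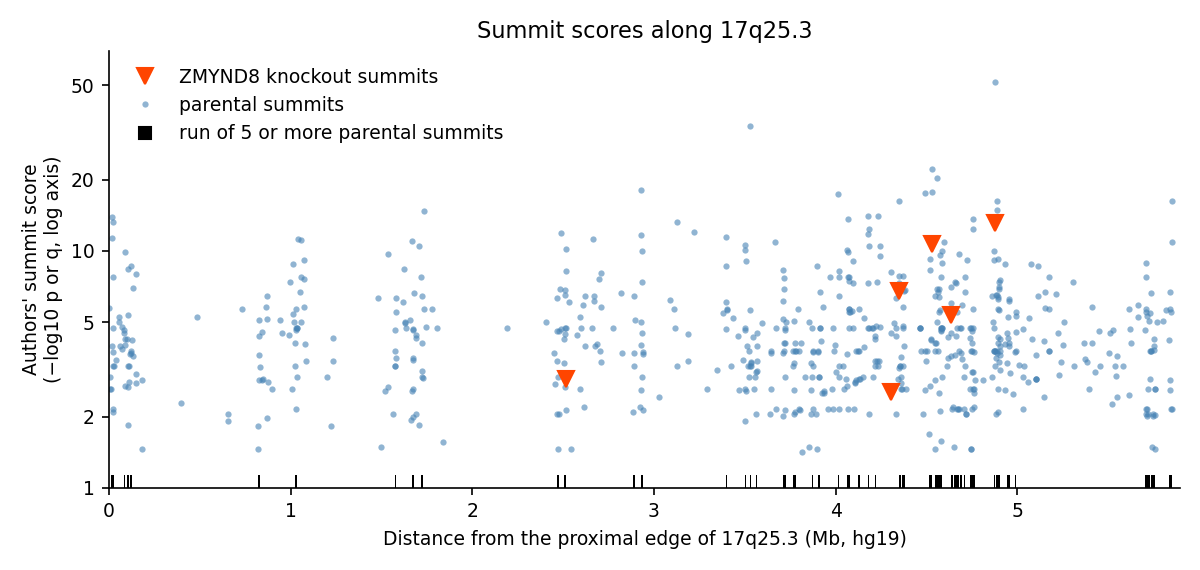
Each point is a summit of 17q25.3, by distance from the proximal edge in Mb and by the authors' score on a log axis, with ZMYND8 knockout summits as triangles and parental summits as dots. Black marks at the base are the 42 runs. The authors scored each list on its own, so heights do not measure change between lists. The highest parental summit, at 51.8, stands above a knockout summit at 13.16.

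The 6 knockout summits of the band all lay close to parental ones. At a distance of at most 200 bp, 5 of 6 had a parental partner (83.3%, 35.9 to 99.6), where the share over the whole knockout list was 75.6%. The sixth lay 274 bp from its nearest parental summit. There were 115.5 parental summits per knockout summit (52.8 to 315.8), against 119.3 (107.9 to 132.2) over the whole lists. An interval this wide, from 6 knockout summits, cannot show that the proportions were the same. The band held 1.56% of the knockout list and 1.51% of the parental list. The ratio was 59.5 (32.1 to 124.7) in 19p13.2, with 10 knockout summits, and 48.0 (21.8 to 131.9) in 11q13.1, with 6.

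At the highest parental summit, the knockout list had a summit at 80175951, 18 bp away, with a score of 13.16. The knockout summit at 79829512 had a score of 10.7 and lay 15 bp from the parental summit of score 22.1. The one at 79651231 had a score of 6.80 and lay 40 bp from the parental summit of score 16.2 at 79651271. These are the 3 knockout summits of highest score in the band, and each paired with 1 of the 15 highest parental summits.

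The other 3 paired with parental summits further down. The knockout summit at 79935571 (5.37) lay 13 bp from a parental summit of score 7.04, and the one at 79603982 (2.55) lay 3 bp from a parental summit of score 8.13. The knockout summit at 77814432 (2.88), the only one in the proximal 2.95 Mb, had a parental summit of score 8.20 at 77814706. A run of parental summits, widened by 500 bp at each end, held 5 of the 6 knockout summits, each in a different run. Of the band's 693 parental summits, 58.7% lay in a run, and the share over the whole knockout list is not given here. The runs of 29, 27 and 23 of these 693 summits held no knockout summit. With 6 knockout summits, these counts set the runs apart from neither the rest of the band nor each other.

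In the other direction, a knockout summit lay within 200 bp of 5 of the 693 parental members (0.722%, 0.235 to 1.68), where the share over the whole parental list was 0.636%. No knockout summit lay within 1000 bp of 678 of them (97.8%, 96.5 to 98.8), and over the whole list of 98.8%. All 5 partners had a score of at least 5.68, the 75th percentile of the list, which 26.1% of the whole list and 182 summits of the band (26.3%) reached. Among those 182 the share with a partner was 2.75% (0.898 to 6.29), against 1.99% (1.75 to 2.25) over the whole list. Below that score it was 0 of 511, against 0.159% over the whole list. The exact interval for 0 of 511 reaches up to 0.719%, and the limit of 3 counts is 0.587%.

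At equal standing in the parental list, the band's shares with a knockout partner rested on 1, 2 and 2 summits, and their wide intervals contained the shares of the whole list. Of its 2 summits among ranks 1 to 100, 1 had a partner (1.26 to 98.7%), against 40 of 100 over the whole list. In ranks 101 to 1000 it was 2 of 16 (12.5%, 1.55 to 38.3), against 9.58% (7.86 to 11.5). In ranks 1001 to 10000 it was 2 of 164 (1.22%, 0.148 to 4.34), against 0.913% (0.743 to 1.11). Tied scores shared their best rank. The highest parental summits more than 1000 bp from any knockout summit were those at 78831139 (33.6), 79856966 (20.3) and 78228364 (18.1). Their nearest knockout summits lay 772843, 27454 and 413932 bp away.

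Score values of the band were less often the recurrent ones of the list. MACS2 computes a score from the read pileup and the expected background, so a value recurs where both recur. The 10 commonest values of the parental list, from 1.45 to 7.77, accounted for 203 of the band's 693 summits (29.3%, 25.9 to 32.8), where the share over the whole list was 56.5%. It was 43.0% (41.0 to 45.1) in the rest of chromosome 17, 31.25% (25.9 to 36.9) in 11q13.1 and 23.4% (20.02 to 27.0) in 19p13.2. The value 2.93 was held by 2.74% of the band's summits and 11.9% of the whole list. The value 3.27 went the other way, with 4.33% in the band and 1.90% in the whole list, as did 2.62, with 2.89% and 1.80%.

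The share was below that of the whole list in every 1 Mb step of the band. By steps from the proximal edge the share at the 10 commonest values was 18.1%, 28.8%, 15.9%, 37.4% and 32.0%, and 29.9% in the last one. It was 33.0% (28.8 to 37.4) in the distal 2.95 Mb and 21.0% (15.8 to 27.1) in the proximal 2.95 Mb, where summits were sparser. In the band it was 32.7% in runs and 24.5% outside them, whereas over the whole list it was 53.4% and 57.7%. Of the 295 bands with 50 or more parental summits, 46 had a lower share than 17q25.3, and the median was 60.4%. Among the densest, 8q24.3 stood at 52.7%, 19p13.11 at 25.4% and 11p15.5 at 81.5%. Across the 295 bands, density and this share had a Spearman rho of −0.15, a description over bands of 1 library.

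**Figure D4:**
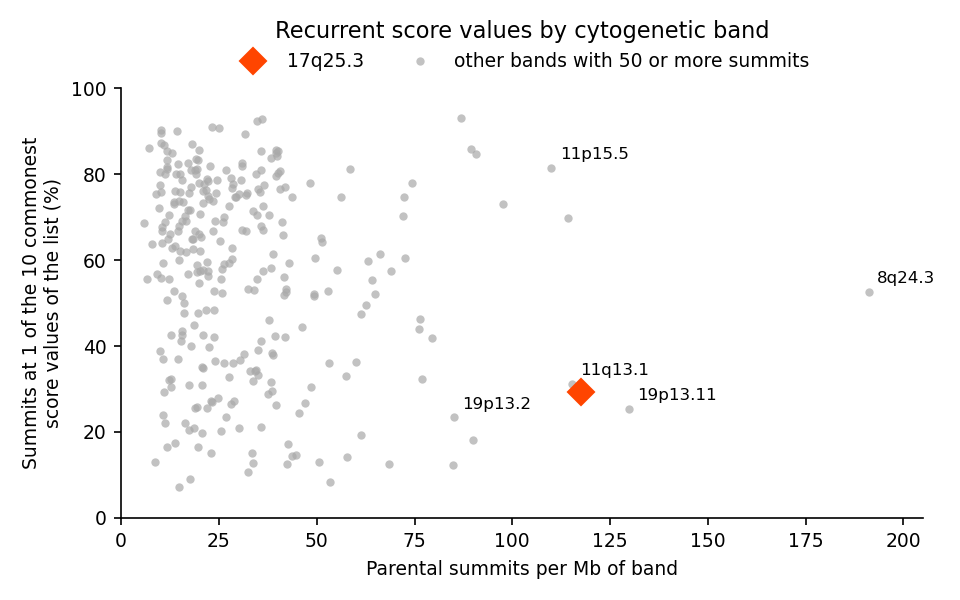
Each point is a cytogenetic band with at least 50 parental summits, by parental summits per Mb and by the share of its summits at 1 of the 10 commonest score values of the list in percent. 17q25.3 (diamond) stands at 117.6 per Mb and 29.3%, next to 11q13.1, while 8q24.3 and 11p15.5, also dense, stand at 52.7% and 81.5%.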

How the data were processed

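Each of the 2 libraries was represented by its deposited list of MACS2 summits on hg19, with a position and a score, per the submitters' processing notes and the values. The deposited score is the authors' −log10 p or q value, which of these is not stated. It was assigned separately in each list and depends on depth and control, so it was used to rank or filter within a list. The notes also name FastQC 0.11.2, Bowtie2 2.2.3 and Picard 1.127, without roles or settings. Depth is not given in the sources used here, so list lengths cannot be corrected for it.

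Positions are 1-based. Summits within 200 bp were partners. Counts have exact Poisson intervals, shares exact Clopper-Pearson intervals and ratios exact conditional binomial intervals. A count of 0 was given the limit of 3 counts. Band edges and lengths came from circlize 0.4.16, a source outside the deposited data. Counting steps were tested on simulated lists. The named summits were the 15 highest parental ones, all knockout ones and the 3 highest without a knockout summit within 1000 bp; the named windows were the 5 fullest and the empty ones; the named runs were the 5 with most summits and the 3 with the highest median. The band, lists and rules were chosen with earlier results of these data known, and the score recurrence was examined after the lists were seen. Gene groups, annotation and sequence context were not analysed, since an hg19 genome and annotation were not used here. Software was scipy 1.17.1, numpy 2.4.6, pandas 2.3.3 and Python 3.11.15, with matplotlib 3.10.9 for figures.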

Additional observations from a re-analysis of the deposited data

How the results depend on the processing

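No paired analysis was possible because each genotype has 1 library. Shares and rates counted as held while inside their own 95% interval, counts and ratios while within 1.5 times. Of 36 alternatives 12 held and 24 did not; most of the latter follow from the setting, since a stricter score, a wider window or another distance changes the value by construction. Parental summits per Mb were 37.7 with scores of 5 or more, 7.80 with scores of 10 or more, and 101.8 with summits within 500 bp merged. The median per window was 4 in windows of 50 kb, 20 in windows of 200 kb and 2 at a score of at least 5. Runs numbered 80 with at least 3 summits, 14 with at least 10 and 8 at a score of at least 5. The share of summits in runs was 39.7% with steps of at most 2500 bp, 78.2% with 10000 bp and 23.9% at a score of at least 5, against 17.8%, 38.8% and 10.3% over the whole list. The share past a score minimum was 32.0% at 5 and 0.577% at 20, against 29.7% and 0.647% over the whole list. Knockout summits with a parental partner came to 100% within 500 bp and 100% within 1000 bp, from 6 summits. The shares of the whole knockout list at these distances are not given here. Parental summits with a knockout partner came to 2.16% within 1000 bp, where 98.8% of the whole list had none. In the highest scoring 25% of the list the band's share was 2.75%, against 1.99% over the whole list. The ratio of parental over knockout summits was 55.5 with scores of 5 or more in both lists and 23.0 with 10 or more, the last from 2 knockout summits. The lists were scored separately, so the same minimum need not mean the same in both. Ratios of the whole lists at these minima are not given here, so the fall cannot be read as particular to the band. The share at recurrent scores was 18.5% for the 5 commonest values and 36.8% for the 20 commonest, against 44.8% and 67.0% over the whole list; it was 24.5% outside runs and 33.0% in the distal part, and the cause of these last shifts was not tested. The settings for runs shares and recurrent scores were chosen after seeing the data. Promoter windows were not run, for want of hg19 gene positions. Depth is unknown, which limits what the knockout list can show.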
